A study of Mus musculus with 8 samples.

Results

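The forkhead (Fox) and T-box genes are 2 families of transcription factor genes, and their peaks for 3 chromatin proteins were examined in mouse embryonic fibroblasts. Members were chosen by symbol: protein-coding genes of the mm10 gene table named Fox with a letter and a number, or Tbx with a number, together with Tbxt, Eomes and Tbr1. This gave 60 of 21887 protein-coding genes, of which 44 are forkhead genes and 16 are T-box genes. The study immunoprecipitated HMGA2, an AT-hook protein of the high mobility group that binds the minor groove of AT-rich DNA. It did the same for H2AXS139ph (γ-H2AX, the phosphorylated histone that marks DNA damage signalling) and for ATM, a kinase that places this mark. The 3 libraries used here came from fibroblasts wild type for Hmga2, on the C57BL/6 background, taken from embryos at E15.5 and grown for 2 to 4 passages. The Hmga2 knockout libraries and the inputs of both genotypes were not analysed here, so every value below is from wild-type cells, with 1 library per antibody and no replicate error. No comparison could therefore be tested, and intervals cover counting error only.

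Forkhead proteins share a winged-helix DNA-binding domain, and several of them open closed chromatin or carry insulin and growth signals to the nucleus. T-box proteins share a different DNA-binding domain, named after the mouse gene Brachyury, and specify mesoderm, heart, limb and parts of the brain in a dose-sensitive way. Many genes of both families are silent in most cell types and active in a small set of embryonic tissues, and fibroblasts derive from mesenchyme in which some of them are active. Peaks measure no expression, so which members these fibroblasts expressed, and whether the cells carried fibroblast markers, could not be checked.

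The lists held 152834 HMGA2, 124947 γ-H2AX and 119570 ATM peaks, most of them narrow (median widths 169, 168 and 167 bp) and close to the calling threshold. The score of a peak is the authors' own, -10 times the log10 of its p-value, and the lowest in each list was 20. Scores under 30 made up 88.4% of the HMGA2, 89.7% of the γ-H2AX and 89.8% of the ATM list. At the members, in their bodies or within 5 kb of either end, there were 204 HMGA2, 210 γ-H2AX and 151 ATM peaks, with 86.8%, 87.6% and 94.0% of them under 30. Scores are used below only to describe peaks within 1 list.

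Promoter sequence was available from RefSeq (GRCm38.p6) for 40 of the 60 members, as 48 windows from 250 bases before to 50 bases after a transcription start. Only 2 of these genes had a peak that reached into such a window, and the upstream 250 bases of both are printed here, 5′ to 3′, with the bases inside the peak in capitals. The first is that of Eomes, which specifies definitive endoderm and mesoderm and later cortical progenitors, at chr9:118477939-118478188 on the plus strand, under an HMGA2 peak with a score of 30.5. The second is that of Tbr1, a factor of deep-layer cortical neurons, at chr2:61804203-61804452 on the plus strand, touched by the edge of a γ-H2AX peak with a score of 21.2.
Eomes: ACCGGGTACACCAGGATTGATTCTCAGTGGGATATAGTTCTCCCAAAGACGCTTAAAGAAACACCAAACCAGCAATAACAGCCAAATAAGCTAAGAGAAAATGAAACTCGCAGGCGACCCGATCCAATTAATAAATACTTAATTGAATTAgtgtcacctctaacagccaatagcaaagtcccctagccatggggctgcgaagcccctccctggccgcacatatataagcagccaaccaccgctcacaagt
Tbr1: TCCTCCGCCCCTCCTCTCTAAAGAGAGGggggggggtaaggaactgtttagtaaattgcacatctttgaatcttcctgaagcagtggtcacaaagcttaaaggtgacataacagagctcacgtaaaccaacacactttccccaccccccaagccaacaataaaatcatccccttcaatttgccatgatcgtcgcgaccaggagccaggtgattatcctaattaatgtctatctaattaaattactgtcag
The HMGA2 peak at Eomes covered 150 bases of its window, from 250 to 101 bases upstream of the start, and 39.3% of those bases were G or C. The whole Eomes window had 47.3% G or C, below the median of 60.8% over the 48 member windows and of 56.3% over the 21263 windows of coding genes. At Tbr1 only 28 bases were covered, from 250 to 223 bases upstream, and 60.7% of them were G or C. Over all 17492 coding genes with a promoter sequence, 1.52% had an HMGA2, 4.37% a γ-H2AX and 2.10% an ATM peak in the window. The members' counts were 1, 1 and 0 of 40. The forkhead motif TGTTTAC, searched on both strands, stood in 1 of the 48 member windows (2.08%, at Foxa1) and in 3.01% of all coding windows. The T-box motif AGGTGTGA stood in 0 of 48 and in 1.15% of all.

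The shares of Fox and T-box genes with a peak were not clearly apart from those of other coding genes of their length. The intervals were wide, so likeness is not shown either. HMGA2 peaks lay within 1 kb of either end of 11 members (18.3%, 95% Wilson interval 10.6 to 29.9%, against 17.9% of all coding genes). The length-standardised number, which sums for each member the share of coding genes from 20% shorter to 25% longer that had such a peak, was 10.1, and the ratio of 11 to it was 1.09 (0.625 to 1.77). For γ-H2AX, 11 members (18.3%, against 23.3% of all coding genes) had a peak at an end where 14.2 were given by length, a ratio of 0.773 (0.445 to 1.26). For ATM, 7 members (11.7%, interval 5.77 to 22.2%, against 16.1%) had a peak at an end where 9.78 were given by length, a ratio of 0.716 (0.354 to 1.36). Within 5 kb of an end, 28 members had an HMGA2 peak (52.3% of all coding genes had one, 29.3 given by length), 33 a γ-H2AX peak (58.5% of all, 34.4 by length) and 29 an ATM peak (52.3% of all, 29.8 by length). In gene bodies the counts were 22 for HMGA2 (49.4% of all, 24.0 by length), 26 for γ-H2AX (55.2% of all, 27.9 by length) and 22 for ATM (51.7% of all, 25.4 by length). The interval of each of the 9 ratios held 1.

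**Figure D1:**
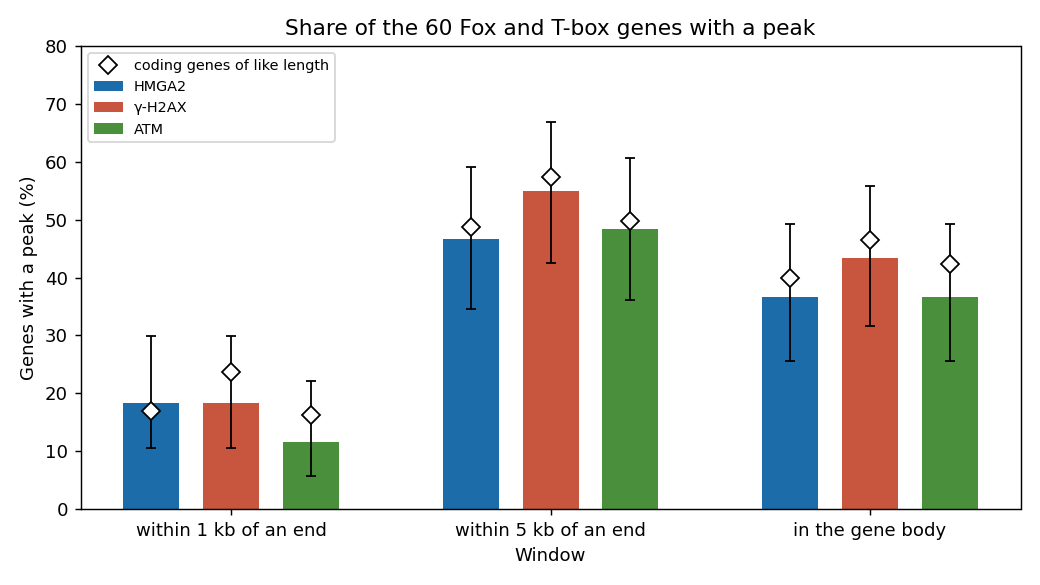
Percent of the 60 Fox and T-box genes with a peak of each antibody within 1 kb of an end, within 5 kb of an end or in the body (bars, with 95% Wilson intervals), and the percent given by coding genes of like length (diamonds). Each diamond lies inside the interval of its bar; at 1 kb the bars are 18.3%, 18.3% and 11.7%.

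Most members, like most coding genes, had peaks of at most 1 antibody within 1 kb of their ends. No peak of any antibody lay there at 35 members (55.0% of all coding genes, 33.1 given by length). A peak of 1 antibody lay there at 22 members (33.8% of all coding genes, 20.2 by length). Peaks of 2 antibodies lay at Foxb1 and Tbx10 (10.1% of all coding genes, 5.99 by length). Tbx18, needed for the sinus node of the heart, the epicardium and the ureter, was the only member with all 3 within 1 kb (1.12% of all coding genes, 0.646 by length). At 5 kb 12 members had peaks of all 3 (20.8% of all coding genes, 11.0 by length): Foxi3, Foxk2, Foxl1, Foxn2, Foxn3, Foxo1, Foxp1, Tbr1, Tbx6, Tbx10, Tbx18 and Tbx22. At the other extreme, 11 members had no peak at all in the body or within 5 kb, where 7.84 were given by length (ratio 1.40, interval 0.808 to 2.29; 10.5% of all coding genes). These were Foxb2, Foxc1, Foxd3, Foxd4, Foxe3, Foxi1, Foxj1, Foxl2, Foxo4, Foxo6 and Tbx21. They include Foxd3, a factor of pluripotent cells and neural crest, Foxj1, the master regulator of motile cilia, Foxl2 of the ovary, and Tbx21 (T-bet), which directs type 1 helper T cells. Also among them are Foxc1, grouped here with mesoderm and mesenchyme, and the insulin-responsive genes Foxo4 and Foxo6.

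**Figure D2:**
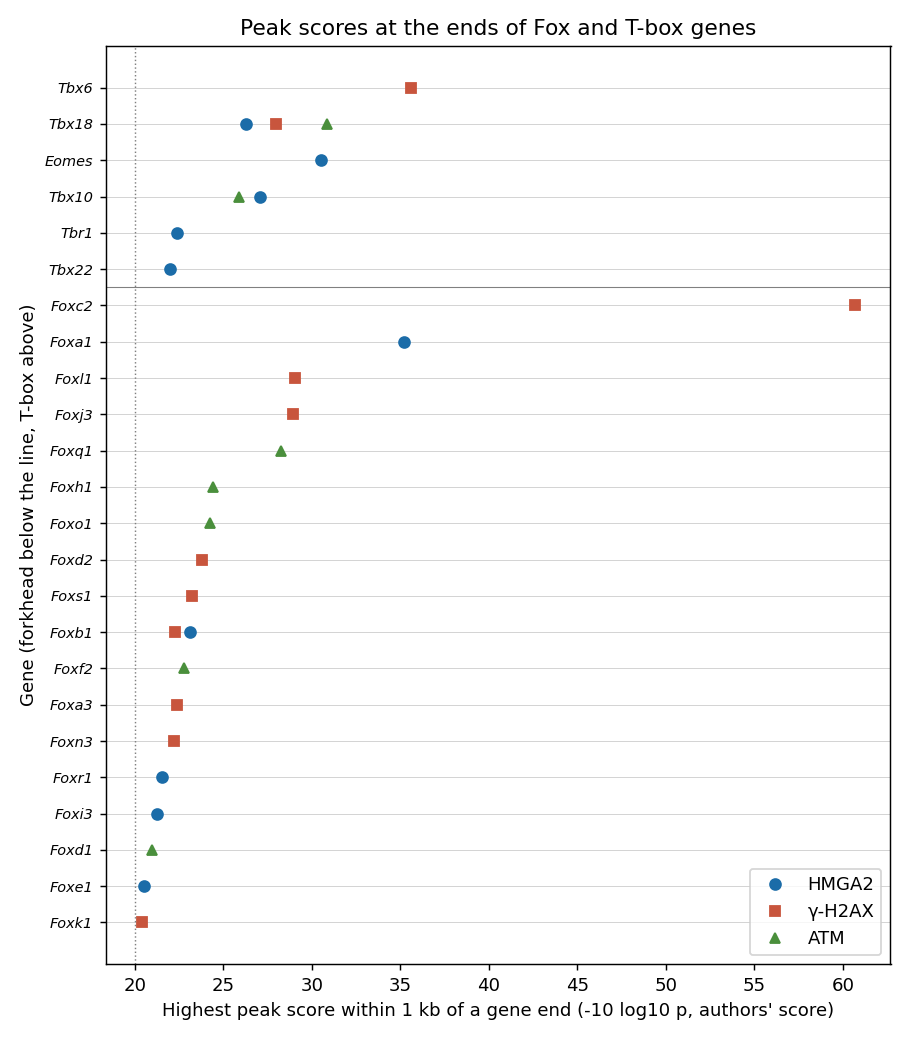
Highest score (authors' score, -10 log10 p) of any HMGA2, γ-H2AX or ATM peak within 1 kb of an end, for 24 of the 25 members with at least 1 such peak; the dotted line is the calling threshold of 20. Foxc2 stands apart with a γ-H2AX score of 60.7, and Tbx18 is the 1 gene with all 3 symbols.

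Among the T-box genes, 5 of 16 had an HMGA2 peak within 1 kb of an end where 2.83 were given by length (ratio 1.76, interval 0.800 to 3.14). The forkhead count was 6 of 44, with 7.30 by length (ratio 0.822, 0.386 to 1.61). For γ-H2AX the T-box count was 2 (4.01 by length) and the forkhead count 9 (10.2 by length). For ATM these counts were 2 (2.72) and 5 (7.05). The intervals of the families overlapped for each antibody.

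The HMGA2 end peaks of T-box genes lay in the Tbx1 and Tbr1 subfamilies. In the Tbx1 subfamily 3 of 6 genes had one (1.13 by length): Tbx10 with a score of 27.1, Tbx18 with 26.3 and Tbx22 with 22.0. In the Tbr1 subfamily 2 of 3 had one (0.486 by length): Eomes, described above, and Tbr1, whose peak of score 22.4 lay 375 bp inside its 3′ end. None of the 4 genes of the Tbx2 subfamily (Tbx2, Tbx3, Tbx4 and Tbx5, which pattern limb and heart) had a peak of any antibody within 1 kb of an end, and neither did Tbxt (Brachyury, of notochord and mesoderm) or Tbx19 (a pituitary factor that activates the Pomc gene). The groups hold 1 to 6 genes, so a single peak moves their shares strongly.

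At Tbx18 the peaks of HMGA2 and ATM stood side by side upstream of the gene. The HMGA2 peak (chromosome 9, 87732054 to 87732217, score 26.3) was centred 875 bp upstream of the 5′ end, and the ATM peak (87732223 to 87732428, score 30.9) 1065 bp upstream, with 5 bases between them. The γ-H2AX peak that completes the set (score 28.0) lay at the other end of the gene, 611 bp beyond the 3′ end and 29785 bases away from the HMGA2 peak. Within the body each antibody had 3 further peaks, of scores 20.4 to 28.8 for HMGA2, 25.9 to 31.5 for γ-H2AX and 21.1 to 25.9 for ATM. With only peaks whose midpoint is inside the 1 kb window, Tbx18 lost its ATM peak, and no member then had all 3. Tbx10, mutated in the cleft-palate mouse Dancer, had its HMGA2 peak 908 bp inside the 5′ end and its ATM peak (score 25.9) 287 bp beyond the 3′ end, where it was also within 1 kb of Nudt8.

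Tbx6, which commits cells to paraxial mesoderm, had the highest γ-H2AX score at the end of a T-box gene. A peak of score 35.6 lay 632 bp upstream of its 5′ end, and a second of score 22.0 lay 1022 bp inside. The upstream peak was also within 1 kb of the neighbouring gene Ypel3, and to which of these genes it belongs cannot be told apart. ATM had 2 peaks within 5 kb of Tbx6 (scores 20.1 and 22.6) and HMGA2 1 (27.2).

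Among forkhead genes of mesoderm and mesenchyme, the γ-H2AX count at ends was above the number by length, and the HMGA2 count was near it. Of 8 such genes, 4 had a γ-H2AX peak within 1 kb (1.71 by length, ratio 2.33, interval 1.00 to 3.66). An HMGA2 peak was at 0 of them (1.1 by length, interval of the ratio 0 to 2.36) and an ATM peak at 2 (1.22 by length). At 5 kb the counts were 6 of 8 for γ-H2AX (3.76 by length), 1 for HMGA2 (3.01) and 3 for ATM (3.14). The difference between antibodies was not tested. This was 1 of 12 role groups looked at for 3 antibodies, and it rests on 4 genes, of which Foxc2 and Foxl1 are neighbours.

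Foxc2, which builds lymphatic vessels and their valves, carried the highest γ-H2AX score at any member's end. Its peak (chromosome 8, 121118316 to 121118636) scored 60.7, was 321 bp wide and lay inside the gene, 419 bp from the end of higher coordinate, and only 74 of the 124947 γ-H2AX peaks scored higher. A second γ-H2AX peak of score 24.6 lay 35 bp beyond that end and another of score 20.4 lay 1977 bp beyond the other end. No HMGA2 or ATM peak lay in Foxc2 or within 5 kb of it. The 60.7 peak was not in the authors' list of γ-H2AX promoter regions.

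The other end peaks of this group scored lower. Foxl1, of the mesenchyme under the gut epithelium, had a γ-H2AX peak of 29.1 centred 85 bp inside its end of lower coordinate. Foxd2 had one of 23.8, at 182 bp beyond its 3′ end, and Foxs1 one of 23.2, at 572 bp beyond its end of higher coordinate. The ATM peaks of the group lay beyond the 3′ ends of Foxf2, a gene of palate and gut mesenchyme (score 22.8, 862 bp beyond), and Foxd1, of the kidney stroma (20.96, 287 bp beyond). Foxc1, which acts with Foxc2 in the eye and the vessels, had no peak in the body or within 5 kb. Foxf1, of lung and gut mesenchyme, had 1 γ-H2AX peak within 5 kb (21.4).

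Foxf1, Foxc2 and Foxl1 are neighbours, and the 56.3 kb from 5 kb below the first to 5 kb above the last held 8 γ-H2AX, 2 HMGA2 and 1 ATM peak. These are 142 γ-H2AX peaks per Mb, where coding gene bodies together had 55.8, against 35.5 for HMGA2 (59.9 in coding bodies) and 17.8 for ATM (46.8). Unlike the bodies, the stretch includes sequence between genes, and no spread over stretches of its size was computed. For scale, the 1999 genes of a length like that of Foxn2 (49.8 kb) had 0 to 292 γ-H2AX peaks per Mb. Another run of forkhead genes, the 262 kb from Foxq1 over Foxf2 to Foxc1 on chromosome 13, held 9 γ-H2AX peaks (34.3 per Mb), 12 HMGA2 peaks (45.7) and 5 ATM peaks (19.1). The γ-H2AX density of the second run was thus below that of coding bodies and that of the first above it. The 29.8 kb around Foxd2 and Foxe3 held 2 γ-H2AX peaks (67.1 per Mb, also above coding bodies), 0 HMGA2 peaks and 1 ATM peak (33.6 per Mb). The T-box pairs Tbx3 and Tbx5 (225 kb, 13.4 γ-H2AX peaks per Mb) and Tbx2 and Tbx4 (93.5 kb, 32.1 per Mb) were below the coding-body value.

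A further group of 8 forkhead genes was labelled endoderm and gland: Foxa1, Foxa2, Foxa3, Foxe1, Foxi1, Foxi2, Foxi3 and Foxq1. The label is loose, since Foxi3 and Foxq1 are described below by hair or teeth. HMGA2 peaks lay within 1 kb of 3 of 8 (1.17 by length) and within 5 kb of 6 of 8 (3.29 by length). Those 6 were Foxa1, Foxa3, Foxe1, Foxi2, Foxi3 and Foxq1, so the count is not one of endoderm genes alone. Within 1 kb, γ-H2AX peaks lay at 1 (1.83) and ATM peaks at 1 (1.26). At 5 kb the γ-H2AX count was 4 of 8 (4.12 by length) and the ATM count 3 of 8 (3.43 by length), both close to the number by length. The difference between antibodies was not tested here either. Foxa1, a pioneer factor that opens chromatin in liver, breast and prostate, had the highest HMGA2 score at any member's end, 35.2, in a peak centred 34 bp beyond its 3′ end. A further HMGA2 peak of 20.1 lay 1171 bp beyond it, and a γ-H2AX peak of 26.1 lay 2511 bp upstream of the 5′ end, within the gene Ttc6. Foxi3, of hair follicles and teeth, had an HMGA2 peak of 21.2 and Foxe1, of the thyroid, one of 20.5, both barely above the threshold. Foxa3, of the liver, had the γ-H2AX peak (22.4, 533 bp upstream of the 5′ end and within 1 kb of Sympk). Foxq1, which is mutated in the satin hair mouse, had the ATM peak (28.3, 389 bp beyond its end of higher coordinate).

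The remaining end peaks were spread over the other groups. Foxb1, of the mammillary bodies, had an HMGA2 peak (23.1) 859 bp beyond its end of lower coordinate and a γ-H2AX peak (22.3) inside the gene, with 3161 bases between them. The 7 forkhead genes of nervous system, eye and neural crest had few γ-H2AX and ATM peaks at 5 kb. These were at 1 gene for γ-H2AX (3.37 by length, interval of the ratio 0.0534 to 1.07) and 1 for ATM (2.84 by length, 0.0633 to 1.26). Both intervals held 1, and HMGA2 was not as low. Foxh1, the Smad partner in Nodal signalling, had an ATM peak of 24.4 that lay within the neighbouring gene Ppp1r16a, and Foxr1 had an HMGA2 peak of 21.5 at 262 bp beyond its 3′ end.

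The 7 broadly expressed forkhead genes (Foxj2, Foxj3, Foxk1, Foxk2, Foxm1, Foxn2 and Foxn3) all had a γ-H2AX peak within 5 kb of an end (4.63 by length, ratio 1.51, interval 0.976 to 1.51), 6 had an ATM peak (4.12) and 4 an HMGA2 peak (4.15). Within 1 kb, 3 had a γ-H2AX peak (1.82 by length) and none an HMGA2 or ATM peak (1.45 and 1.22 by length). Foxj3 had a γ-H2AX peak of 28.9 centred 503 bp upstream of its 5′ end, which was also within 1 kb of Frg2f1. Foxn3, a checkpoint factor, had one of 22.2 at 131 bp upstream, and Foxk1, which represses autophagy genes, one of 20.4 at 947 bp inside its end of higher coordinate. Foxm1, the forkhead factor of mitosis, had γ-H2AX peaks of 22.6 and 22.0 at 1391 and 4217 bp outside its end of lower coordinate, both within the gene Rhno1.

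Of the 4 insulin-responsive FOXO genes, only Foxo1 had a peak within 1 kb, an ATM peak of 24.3 centred 227 bp inside its 5′ end. Its body also held the highest γ-H2AX score of the FOXO genes, 49.0, at 1397 bp inside the 3′ end, and an HMGA2 peak of 43.7. In all the Foxo1 body had 5 HMGA2, 6 γ-H2AX and 4 ATM peaks. Foxo3, which promotes stress resistance and quiescence, had 5 HMGA2, 5 γ-H2AX and 2 ATM peaks in the body and ATM peaks of 28.0 and 29.3 outside either end. Foxo4 and Foxo6 had none.

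**Figure D3:**
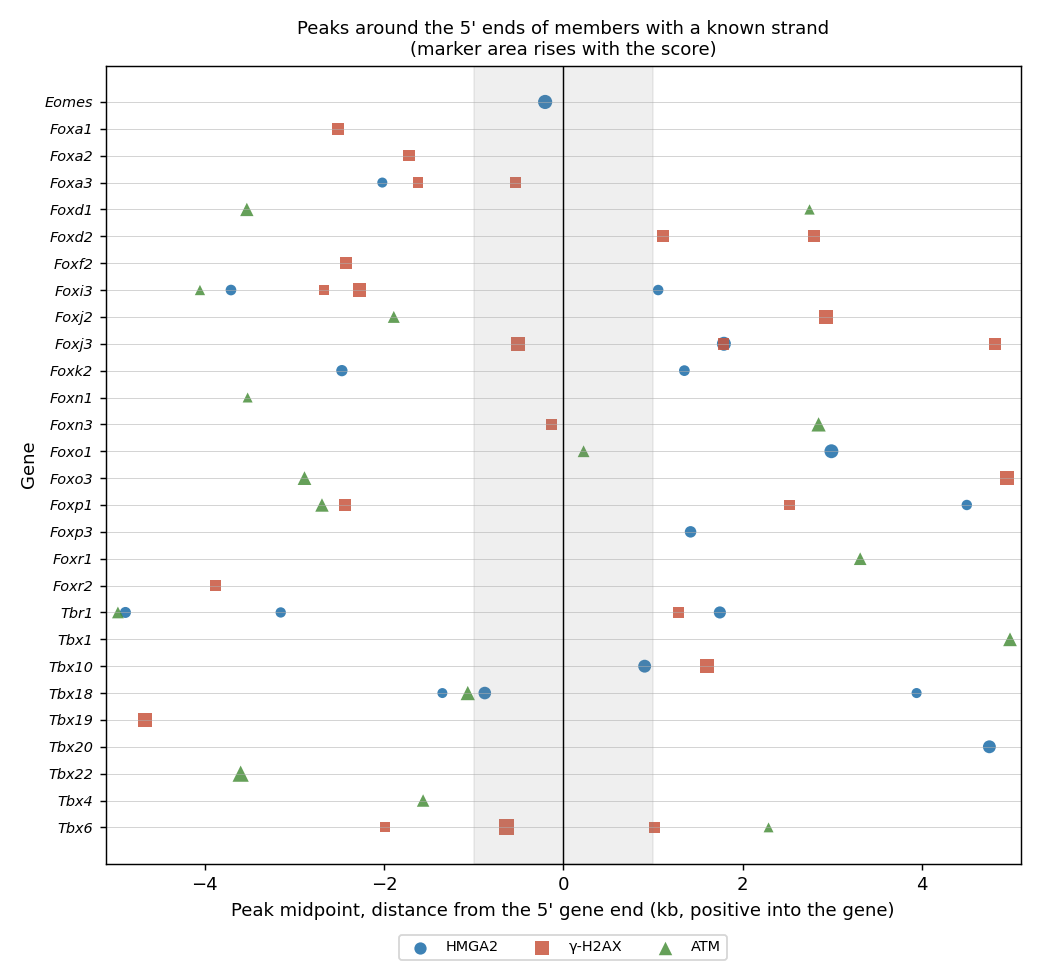
Midpoints of all peaks within 5 kb of the 5′ gene end, in kb (positive into the gene), for the members whose strand is known and that had any; the shaded band is 1 kb on either side and marker area rises with the score. Only 8 of the genes shown have a peak centre inside the band, among them the HMGA2 peak of Eomes at 202 bp upstream and the γ-H2AX peak of Tbx6 at 632 bp upstream.

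Strand was known for 40 members, and of their HMGA2 peaks within 1 kb of an end 4 were nearer the 5′ end and 4 nearer the 3′ end. For γ-H2AX the split was 5 and 2, and 4 of the 5 lay upstream of the gene. For ATM it was 2 and 3. The same split was not computed for other coding genes. Of all 13 γ-H2AX peaks at members' ends 3 were within 1 kb of another gene as well, as were 2 of 7 for ATM and 0 of 11 for HMGA2.

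The authors deposited lists of promoter regions for γ-H2AX (2220 regions, all identical to a peak) and ATM (866, of which 788 are identical to a peak). The γ-H2AX list reached 6 members within 1 kb (9.03% of all coding genes, 5.32 given by length): Foxa3, Foxb1, Foxj3, Foxl1, Foxs1 and Tbx6. The peak that touches the Tbr1 window printed above was also in it; it lies 1284 bp inside the end of the Tbr1 gene span, since the start used for that window is not the outermost. The ATM list reached Tbx10 (3.44% of all coding genes, 2.09 by length).

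In gene bodies the sum of peaks was set by a few long genes, and Foxp2 and Foxp1 had opposite compositions. All bodies together held 183 HMGA2, 179 γ-H2AX and 127 ATM peaks, where 159, 144 and 124 were given by length. Without Foxp1 and Foxp2 these sums were 76, 92 and 75, with 87.9, 89.9 and 72.0 by length. For HMGA2, leaving out Foxp2 alone turned the ratio from 1.15 to 0.817.

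**Figure D4:**
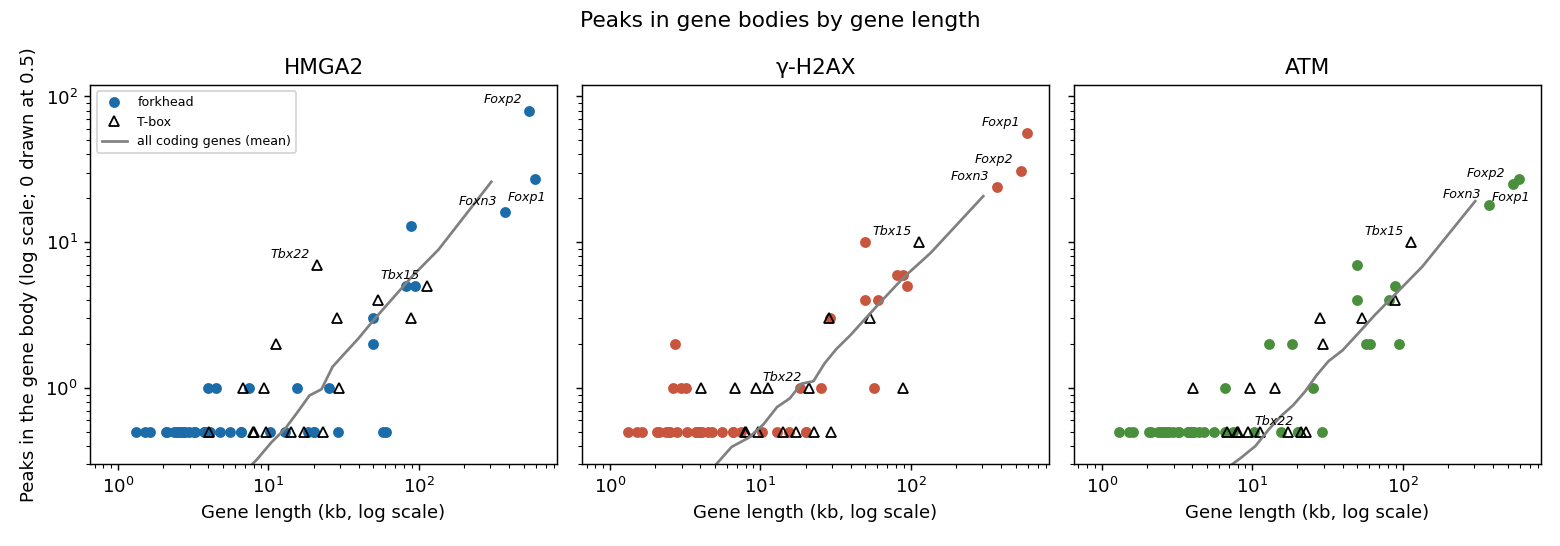
Number of peaks in the body of each member against gene length, both on log scales with 0 drawn at 0.5, for each antibody; the grey line is the mean of all coding genes in classes of length. Tbx22 (7 HMGA2 peaks) lies above the line for HMGA2, while Foxp2 (80 HMGA2 peaks) and Foxp1 (56 γ-H2AX peaks) are longer than the median gene of the longest class, where the line ends.

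Foxp2, known for its part in speech and in striatal circuits, spans 541 kb and held 80 HMGA2, 31 γ-H2AX and 25 ATM peaks. Its 148 HMGA2 peaks per Mb compare with a median of 59.5 over 167 coding genes of like length, of which 4 were as dense or denser. For γ-H2AX (57.3 per Mb, median 46.1) 52 of the 167 were as dense, and for ATM (46.2, median 44.6) 72 were. The high HMGA2 density was not limited to the gene: the stretches of equal length below and above it had 109 and 118 HMGA2 peaks per Mb. Along the gene, 25 of 28 bins of 20 kb held an HMGA2 peak, with at most 6 in a bin.

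Foxp1, which acts in heart, lung and B-cell development, spans 597 kb and held 27 HMGA2, 56 γ-H2AX and 27 ATM peaks. Its 93.7 γ-H2AX peaks per Mb compare with a median of 46.9 over 136 genes of like length, of which 7 were as dense or denser. For HMGA2 (45.2 per Mb, median 65.0) 98 of the 136 were as dense, and for ATM (45.2, median 45.1) 67 were. Here the flanks differed, with 78.7 γ-H2AX peaks per Mb below the gene and 38.5 above it. A γ-H2AX peak lay in 28 of 30 bins of 20 kb, and an HMGA2 peak in 16.

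The balance between the antibodies differed between these paralogs, and in the same direction between the stretches beside them. Foxp2 had 2.58 HMGA2 peaks for each γ-H2AX peak, above 151 of 167 genes of like length (median 1.24). Foxp1 had 0.482, below 135 of 136 (median 1.31). The stretches of equal length below and above Foxp2 held 59 and 64 HMGA2 peaks against 16 and 36 γ-H2AX peaks. Those below and above Foxp1 held 41 and 10 HMGA2 peaks against 47 and 23 γ-H2AX peaks. The stretches leaned the same way as the genes beside them, but their balance was not set against that of other stretches. The lists differ in size, and whether this affects every gene alike was not tested. The shorter members of the subfamily had few peaks: Foxp3, the factor of regulatory T cells, had 1 HMGA2 peak in its body, and Foxp4 had 1 γ-H2AX and 2 ATM peaks there.

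**Figure D5:**
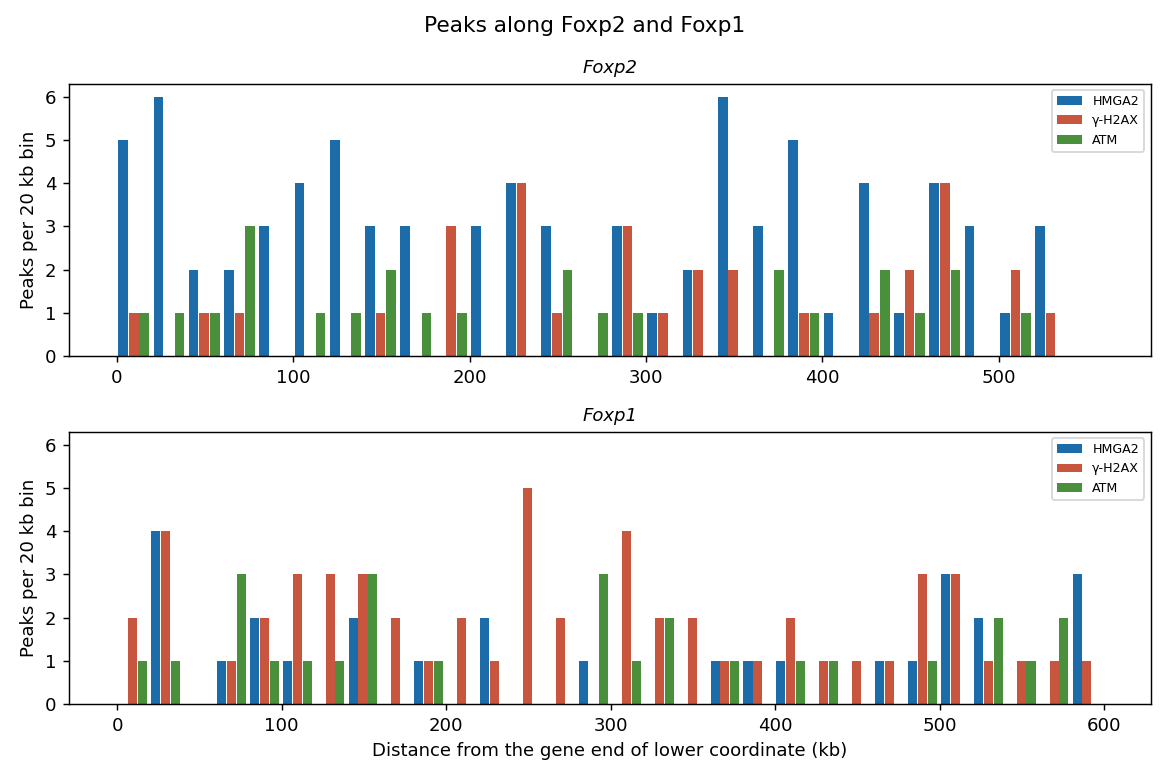
Peaks per 20 kb bin along Foxp2 (top) and Foxp1 (bottom), by distance in kb from the gene end of lower coordinate, for the 3 antibodies. HMGA2 peaks fill 25 of 28 bins of Foxp2 and γ-H2AX peaks fill 28 of 30 bins of Foxp1.

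The other members over 100 kb were closer to genes of their length. Foxn3 (374 kb) had 16 HMGA2, 24 γ-H2AX and 18 ATM peaks, and 210, 97 and 146 of 298 genes of like length were as dense or denser. Tbx15 (114 kb), a factor of skeleton and fat, had 5, 10 and 10, and 718, 257 and 73 of 1158 genes were as dense.

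Among shorter genes, Tbx22 on the X chromosome stood out for HMGA2. Tbx22, mutated in X-linked cleft palate, is 21017 bp long and held 7 HMGA2 peaks, 1 γ-H2AX and no ATM peak, and 3 of 2762 genes of like length were as dense in HMGA2. The 7 peaks were all in the last part of the gene, centred between 13857 and 19457 bp from the 5′ end, with scores from 20.1 to 36.7. The stretch of equal length below the gene had 0 HMGA2 peaks and the one above it had 2. An ATM peak of score 36.9 lay 3598 bp upstream. Foxn2 (49.8 kb) had 10 γ-H2AX peaks against 3 of HMGA2 and 4 of ATM, and 12 of 1999 genes of like length were as dense in γ-H2AX. Foxj3 (89.5 kb) had 13 HMGA2 peaks, with 98 of 1400 genes as dense, and Foxk2, a partner of Foxk1, had 7 ATM peaks.

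Peaks of different antibodies rarely overlapped at the members, about as rarely as in the whole lists. HMGA2 and γ-H2AX peaks overlapped by at least 1 bp at 5 sites, 2.45% of the HMGA2 and 2.38% of the γ-H2AX peaks at members (2.67% and 3.26% of the whole lists). HMGA2 and ATM overlapped at 4 sites (1.96% and 2.65%, whole lists 2.42% and 3.08%). γ-H2AX and ATM overlapped at 6 sites (2.86% and 3.97%, whole lists 2.68% and 2.79%). Only 2 of these 4 HMGA2 and ATM overlaps, and 2 of the 6 between γ-H2AX and ATM, covered 50% of the shorter peak.

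The overlaps named few genes. HMGA2 met γ-H2AX in Tbx15, Foxj3, Foxp1 and at 2 sites in Foxp2, and met ATM in Foxp1, Foxp2, Tbx5 and below Tbr1. γ-H2AX met ATM in Foxp2, Tbx15, Tbx20, Foxn2 and at 2 sites in Foxp1. In Foxj3 the HMGA2 peak (score 30.1) and the γ-H2AX peak (24.2) shared 147 bp, centred 1792 bp inside the 5′ end. In Tbx5, the limb and heart gene of Holt-Oram syndrome, the HMGA2 (21.1) and ATM (20.5) peaks shared 162 bp.

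At a single site in Foxp1 peaks of all 3 antibodies overlapped. How often this happens over the whole lists was not computed. The HMGA2 and ATM peaks of the site scored close to the threshold. On chromosome 6 the HMGA2 peak ran from 99067073 to 99067298 (score 22.9), the γ-H2AX peak from 99067059 to 99067434 (73.2) and the ATM peak from 99067075 to 99067238 (21.7). The γ-H2AX score was the highest at any member, and only 23 peaks of that list scored higher. The gene is read from the minus strand, and the site lay 38.9 kb upstream of the innermost of the 3 starts in the promoter table and downstream of the other 2. Whether the site is exonic or intronic was not annotated in the table used.

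Lists of target and partner genes gave the following counts within 1 kb of an end. Of 21 FOXO target genes, 8 had a γ-H2AX peak (5.23 by length), 3 an HMGA2 (3.69) and 3 an ATM peak (3.47). They included the stress genes Sesn1 (γ-H2AX 23.7, ATM 24.0) and Sesn3 (24.1 and 20.7), Txnip, an inhibitor of glucose uptake (HMGA2 28.3, γ-H2AX 26.5), and the cell cycle inhibitor Cdkn1b (HMGA2 29.8). Of 13 FOXM1 target genes, which drive mitosis, 6 had a γ-H2AX peak (3.24 by length), 1 an HMGA2 (2.19) and 1 an ATM peak (2.16). The mitotic kinases Aurkb and Plk1 were among them, with γ-H2AX scores of 38.8 and 25.2. Of 20 T-box partners and targets, 4 had a γ-H2AX peak (4.66 by length), 5 an HMGA2 (3.28) and 2 an ATM peak (3.14). Gata4, the cardiac partner of Tbx5, was highest for γ-H2AX (34.5) and the co-repressor gene Tle1 highest for HMGA2 (32.7). Within 5 kb some counts changed sides, such as HMGA2 at T-box partners (7, with 9.51 by length) and ATM at FOXM1 targets (9, with 6.97). The γ-H2AX counts of FOXO and FOXM1 targets stayed above the number by length there (16 and 10, with 12.7 and 7.91).

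Genes typical of fibroblasts were listed as a reference for the cell type. Of 10 such genes, 5 had an HMGA2 peak within 1 kb (1.93 by length), 1 a γ-H2AX (2.62) and 2 an ATM peak (1.75). The HMGA2 peaks within 1 kb lay at Pdgfra (29.8) and Pdgfrb (26.3), which encode receptors for platelet-derived growth factor, and at Col3a1 (28.6), Vim (24.97) and Postn (22.5). Within 5 kb the antibodies were nearly alike, with 9 HMGA2, 9 γ-H2AX and 8 ATM of 10 (5.68, 6.45 and 5.70 by length). The Sox, Pax and Nkx genes, other families of developmental transcription factors, were counted in the same way. HMGA2 end peaks were at 2 of 19 Sox (3.13 by length), 1 of 9 Pax (1.77) and 1 of 14 Nkx genes (2.1). γ-H2AX peaks were at 2 Sox (4.27), 1 Pax (2.31) and 2 Nkx genes (3.22), and ATM peaks at 3 Sox (2.93), 3 Pax (1.53) and 2 Nkx genes (2.21). For HMGA2 and γ-H2AX these are 7.14 to 14.3% of each family, against 18.3% of the Fox and T-box genes. For ATM within 1 kb the order was the other way, with 15.8% of Sox, 33.3% of Pax and 14.3% of Nkx genes against 11.7%. Within 5 kb the γ-H2AX order was reversed, with 63.2% of Sox, 66.7% of Pax and 64.3% of Nkx genes against 55.0%. The HMGA2 order was kept there, with 36.8%, 33.3% and 28.6% against 46.7%. For ATM the shares within 5 kb were 47.4%, 66.7% and 64.3% against 48.3%. The 1 kb shares rest on 1 to 3 genes each, and none of the differences was tested.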

How the data were processed

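Peak lists of 3 wild-type libraries and 2 promoter region lists were used. MACS was run by the authors at a p-value of 0.01 with a shift of 30 bp, per the labels, and each deposited score is -10 log10 of the p-value. Per the submitters' processing notes, Trimmomatic, Bowtie2, SAMtools and HOMER were used with mm10; the control of the peak calls is not given in the sources used here. Read depth was not given, so no depth is set beside a count of peaks.

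Gene spans came from a RefSeq table of GRCm38.p6, in which Tbxt is listed as T. A peak counted for a gene when 1 bp fell in its body or within 1 or 5 kb of an end. Members were set against coding genes of like length (136 to 2762 per member). Genes were named by rule: highest scores at ends (8 per antibody) and in bodies (5), most body peaks (5), overlaps, listed promoters and length over 100 kb; members with other end peaks and the role groups were added to account for all. Members and lists were chosen with earlier results of these data known. Counting was tested on simulated peaks. Python 3.11.15, numpy 2.4.6 and pandas 2.3.3 were used. Alternatives were higher score limits, other length classes, 500 bp windows, peak midpoints and promoter CpG content. The end peak of 1 member is counted but not reported here.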

Additional observations from a re-analysis of the deposited data

How the results depend on the processing

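The 9 ratios of members to the length-standardised number were recomputed under other settings, which gave 78 values, and 72 of them moved by less than the counting interval. The 6 that moved came from stricter score limits, which leave few peaks. Several other settings, such as other length classes, midpoints or leaving out Tbxt, kept nearly the same counts and could move a ratio little. With the 10000 highest-scoring peaks of each list, the ratio for HMGA2 was 1.24 in bodies and 0.344 within 5 kb, and that for ATM was 0.472 in bodies, 0.581 within 5 kb and 0 within 1 kb. With scores of 30 or more, the ATM ratio in bodies was 0.549. Against genes of like length and promoter CpG, for 40 members, the γ-H2AX ratio within 1 kb was 0.569 (6 members, where 10.5 were given). By length alone the γ-H2AX ratio of these 40 was 0.627. The HMGA2 and ATM ratios within 1 kb by length and CpG were 1.21 and 0.796. The count of members with all 3 antibodies within 1 kb, 1 as reported, was 0 with 500 bp windows, 0 with midpoints and 0 with scores of 30 or more. Leaving out Tbxt, members over 100 kb or members with no promoter sequence was chosen after the data were seen. No paired analysis was possible because each antibody has 1 library and the labels carry no replicate numbers. Most peaks score close to the threshold, read depth is unknown and no replicate shows which peaks recur, so single peaks with scores near 20 are the least certain values here.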
